A study of Mus musculus with 4 samples.

Results

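Leptin and 7 other adipokines, hormones and factors that fat cells release, were followed at the RNA level in the gonadal white fat (gWAT) of mice on a high-fat diet, with and without canagliflozin. The 8 genes were Lep, Adipoq, Retn, Cfd, Rbp4, Nampt, Apln and Rarres2. They were chosen by name as adipokines, with earlier results of these data known. Each matched 1 of the 45706 genes in the table. Both groups were C57B6/N mice fed a high-fat diet for 2 months. The HFD group received the diet alone (n = 2), and the HFD+Cana group received canagliflozin, an inhibitor of the kidney glucose transporter SGLT2, at 0.03% by weight in the food for 7 days (n = 2). The sample labels give no age and no sex. The study describes these animals as male, and there was no lean group among the samples, so the comparison is between treated and untreated mice on this diet. RNA of the tissue, with all its cell types, was sequenced. Fewer cells of a type and less RNA per cell therefore cannot be told apart in any value below.

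Leptin is secreted by adipocytes in proportion to fat mass and acts on the hypothalamus to lower food intake. Adiponectin (Adipoq) improves insulin sensitivity, and its level in blood is lower in obesity. Adipsin (Cfd, complement factor D) is the serine protease that starts the alternative complement pathway, and its RNA is known to be low in fat of several obese mouse models. Resistin (Retn) opposes insulin action in mice, and Rbp4 carries retinol in blood. Nampt makes NAD precursors inside cells and is also secreted as visfatin. Apelin (Apln) is a peptide ligand of a receptor on vascular cells, and chemerin (Rarres2) attracts macrophages and dendritic cells and acts on adipocytes.

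Values are in TPM, a measure of transcript abundance. Reads are divided by transcript length and scaled to the same total in every sample. Each level is thus a share of its sample, and it shifts when other transcripts take more or less of the total. The treated and untreated groups were fitted in limma on log2(TPM + 1), the scale of every log2 fold change given here, and p-values were adjusted by the Benjamini-Hochberg method across the 13788 genes that averaged 1 TPM or more. All 8 adipokine genes were above that level. Between 19884 and 21129 genes were above 0 TPM in a mouse. The read depth cannot be recovered from TPM and is unknown, so no counting interval is given. The samples had the defining transcripts of fat, with Fabp4 between 27143 and 32473 TPM and Plin1 between 546 and 713 TPM, while 8 epididymis markers summed to between 0.332 and 4.57 TPM. The marker sums of some other cell types did not overlap between the groups. The summed level of 13 mesothelial markers was 132 to 160 TPM in HFD, against 295 to 456 TPM in HFD+Cana, that of 15 hepatocyte markers (leaving out Cyp2e1, which had 778 TPM or more in every mouse) was at most 24.3 TPM in HFD and 157 to 218 TPM in HFD+Cana, and that of 5 red blood cell markers was 1756 to 5940 TPM and 6673 to 14391 TPM. The red blood cell sums of HFD replicate 2 and HFD+Cana replicate 2, 5940 and 6673 TPM, were closer than those of the mice within either group. In limma 0 of these 5 genes had an unadjusted p under 0.05 (10.8% of all genes tested). The summed level of 10 skeletal muscle markers was 286 to 349 TPM in HFD and 165 to 250 TPM in HFD+Cana. Most of it was Acta1, with 220 and 195 TPM in HFD, against 99.3 and 187 TPM in HFD+Cana. Ckm, Myh4, Tnnt3 and Atp2a1 were at 6.68 TPM or more in HFD replicate 2 alone and at 1.24 TPM or less in the other mice. Of the hepatocyte markers 4 (Fga, Fgg, Ambp and Cps1) were listed at 0 in both HFD mice. Macrophage markers (12 genes) had overlapping sums, 2841 to 4031 TPM in HFD and 2834 to 4929 TPM in HFD+Cana. The sums of 10 adipose progenitor markers also overlapped, at 5285 to 6975 TPM and 6420 to 7981 TPM. Most of each sum was Gsn, at 4152 to 6603 TPM over the 4 mice. Of these 10 markers 9 had a positive log2 fold change, with a median of 0.26. At an unadjusted p under 0.05 in limma 4 were higher and 1 was lower (5.32% and 5.45% of all genes tested), and 0 passed an adjusted p of 0.05.

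Adipsin RNA was 3.02-fold higher and leptin RNA 1.67-fold lower in the HFD+Cana mice, by the ratio of group means, while adiponectin RNA had overlapping groups. No adipokine gene passed an adjusted p of 0.05 in limma (0 of 8, against 0.0435% of all genes tested). At an unadjusted p under 0.05 Cfd was higher and Lep was lower (1 of 8 in each direction, against 5.32% of all genes higher and 5.45% lower). The groups did not overlap in 4 of the 8 genes, with Cfd and Apln higher in both HFD+Cana mice and Lep and Rarres2 lower. Over all genes tested 44.1% had groups that did not overlap, 24.3% with higher and 19.8% with lower values, so a separation between groups of 2 mice was common. The median log2 fold change was 0.078 over the 8 genes and 0.019 over all genes tested.

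**Figure D1:**
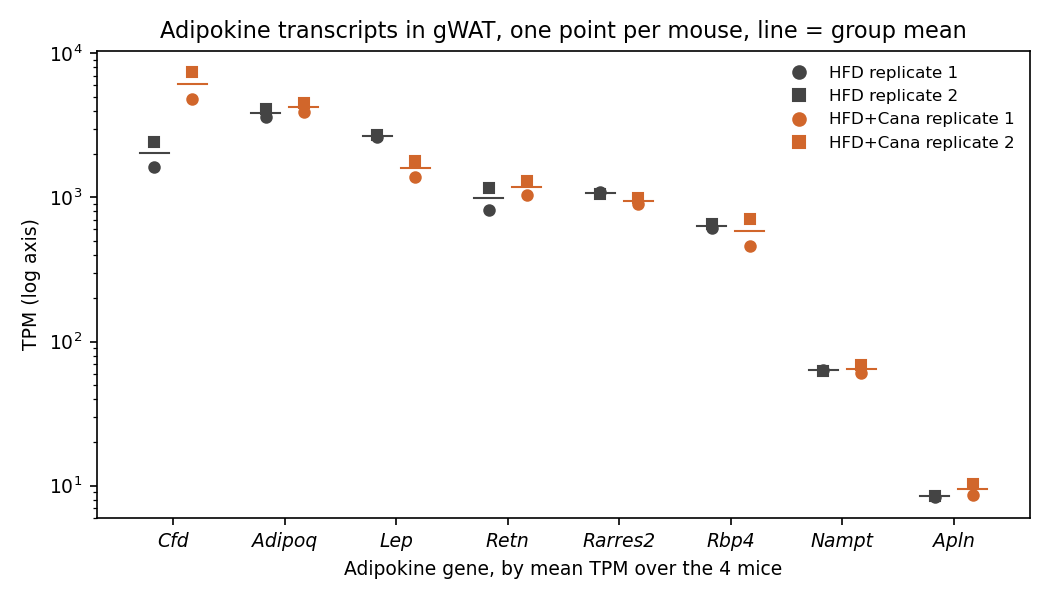
TPM of the 8 adipokine genes on a log axis, with one point per mouse, shape for the replicate and a line for the group mean. Cfd lies highest in the HFD+Cana mice at 4838 and 7433 TPM, Lep is lower in both of them than in both HFD mice, and the 8 genes span levels from 8.39 TPM (Apln) to 7433 TPM.

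The 250 bases before the start of transcription are shown for Lep and Cfd, whose RNA differed most in opposite directions, and for Adipoq, whose groups overlapped. Sequences are from RefSeq (GRCm38.p6), 5′ to 3′ on the strand of the gene, at chr6:29059971-29060220 (Lep), chr10:79890603-79890852 (Cfd) and chr16:23146286-23146535 (Adipoq), each on the plus strand. Capitals mark matches to any of 3 motifs on either strand, TTNCNNAA for factors of the C/EBP family, GGGCGG for the GC box bound by Sp1, and TATAAA.
Lep: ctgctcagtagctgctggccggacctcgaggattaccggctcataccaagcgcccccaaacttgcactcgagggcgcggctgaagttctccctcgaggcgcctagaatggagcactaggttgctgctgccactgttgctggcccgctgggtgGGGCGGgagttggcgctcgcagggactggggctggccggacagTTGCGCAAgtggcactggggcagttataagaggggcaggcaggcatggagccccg
Cfd: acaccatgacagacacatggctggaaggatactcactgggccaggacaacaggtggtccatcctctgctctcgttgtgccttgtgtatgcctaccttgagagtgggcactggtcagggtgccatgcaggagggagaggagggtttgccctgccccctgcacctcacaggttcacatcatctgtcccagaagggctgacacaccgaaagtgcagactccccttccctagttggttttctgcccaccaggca
Adipoq: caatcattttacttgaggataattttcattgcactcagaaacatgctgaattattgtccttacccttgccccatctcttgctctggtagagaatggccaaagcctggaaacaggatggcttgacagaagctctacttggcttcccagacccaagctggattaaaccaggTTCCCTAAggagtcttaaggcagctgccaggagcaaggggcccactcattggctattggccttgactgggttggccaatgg

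The Lep window held TTGCGCAA from position -55 to -48 (position -1 is the last base before the start), a palindrome that matches the C/EBP motif on both strands, and a GC box from -98 to -93. The same 8 letters were present in 46 of 27025 mouse promoter windows of this length (0.17%). TTNCNNAA was in 36.9%, GGGCGG in 32.9% and TATAAA in 13%. The 8 letters were read from the Lep window itself and have no open position, so they must be rarer than TTNCNNAA. The Adipoq window had a TTNCNNAA match from -81 to -74 (TTCCCTAA), and the Cfd window held none of the 3 motifs. These matches describe the letters only. Of the 8 genes, 7 had a window in the RefSeq table.

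Leptin RNA was lower in both canagliflozin-treated mice than in both HFD mice. Lep, on chromosome 6 from 29060220 to 29073877 (GRCm38, as for the other genes), measured 2621 and 2725 TPM in HFD, against 1397 and 1795 TPM in HFD+Cana. The HFD mice differed from each other by 104 TPM and the HFD+Cana mice by 398 TPM, while the nearest mice of the 2 groups were 825 TPM apart. The means were 2673 ± 73.9 TPM and 1596 ± 281 TPM (SD, n = 2 per group). The log2 fold change was -0.75 (standard error 0.16, 95% confidence interval -1.19 to -0.32, adjusted p = 0.274 from limma). By TPM Lep ranked 40 and 42 among all genes of the table in HFD, against 80 and 61 in HFD+Cana. Of the 280 tested genes averaging 500 TPM or more, a level picked for this description, Lep had the 5th lowest fold change. Without any 1 of the mice its log2 fold change stayed between -0.93 and -0.57, with an adjusted p that did not pass.

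Adipsin RNA moved the other way and by more. Cfd, on chromosome 10 from 79890853 to 79892655, measured 1620 and 2445 TPM in HFD, against 4838 and 7433 TPM in HFD+Cana. Both treated mice were above both HFD mice, by at least 2393 TPM, although the treated mice also differed from each other by 2596 TPM. The means were 2032 ± 583 TPM and 6136 ± 1835 TPM (SD, n = 2 per group). The log2 fold change was 1.59 (standard error 0.31, 95% confidence interval 0.78 to 2.41, adjusted p = 0.264 from limma). By TPM Cfd ranked 70 and 45 among all genes in HFD and 24 and 11 in HFD+Cana, and it had the 4th highest fold change of the 280 genes averaging 500 TPM or more. Ranked above it were the red blood cell markers Hba-a2, Hbb-bs and Hba-a1, named after their values were seen. Their log2 fold changes were 1.61, 1.61 and 1.60. Mesothelial markers were also higher in both HFD+Cana mice, and their part in the Cfd difference was not tested.

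**Figure D2:**
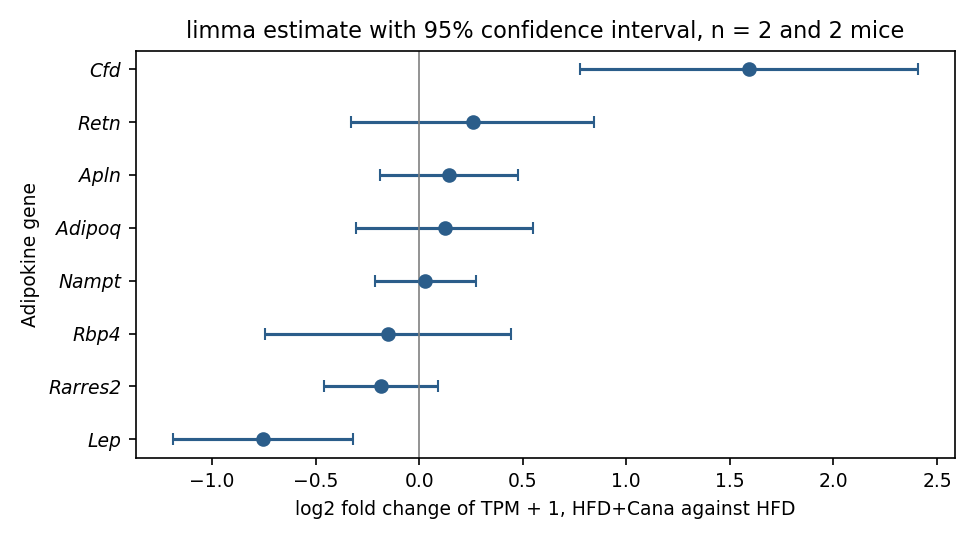
log2 fold change of TPM + 1 between HFD+Cana and HFD for each adipokine gene, with the limma estimate as a point and its 95% confidence interval as a bar. The intervals of Cfd (0.78 to 2.41) and Lep (-1.19 to -0.32) lie on one side of 0 before adjustment over all genes, and those of the other 6 genes include 0.

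**Figure D3:**
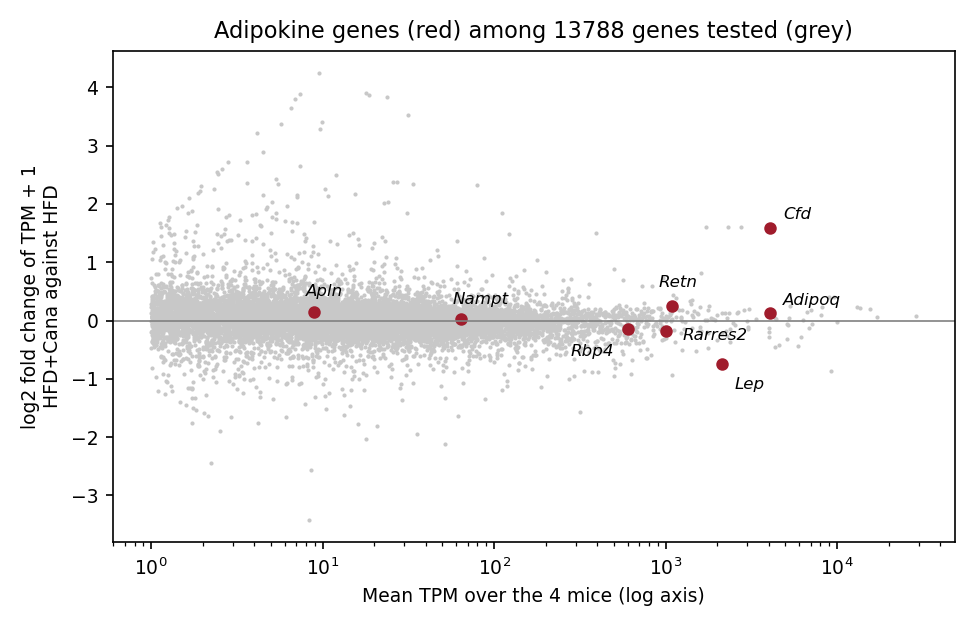
log2 fold change against mean TPM (log axis) for the 13788 genes tested, in grey, and the 8 adipokine genes, in red. Cfd and Lep lie at the edges of the cloud for genes of their level, at 1.59 and -0.75, while the other 6 genes lie between -0.18 and 0.26.

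Adiponectin RNA was high in every mouse and its groups overlapped. Adipoq, on chromosome 16 from 23146536 to 23158028, measured 3645 and 4124 TPM in HFD, against 3926 and 4551 TPM in HFD+Cana. The log2 fold change was 0.12 (standard error 0.16, 95% confidence interval -0.30 to 0.55, adjusted p = 0.814 from limma). Without any 1 of the mice it lay between 0.018 and 0.23, the lowest without HFD+Cana replicate 2 and the highest without HFD+Cana replicate 1. An increase or a decrease within the confidence interval cannot be told from no change with 2 mice per group.

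The balance of adipokine transcripts within a mouse does not depend on a common scaling of its sample. The ratio of Lep to Adipoq TPM, the transcript counterpart of the leptin to adiponectin ratio measured in blood, was 0.719 and 0.661 in HFD and 0.356 and 0.395 in HFD+Cana. The log2 ratio was -0.54 ± 0.086 in HFD and -1.42 ± 0.10 in HFD+Cana (SD, n = 2 per group), a difference of -0.88, larger than either spread. An exact two-sided permutation test gave p = 0.333, the smallest that 2 mice against 2 allow. The ratio of Cfd to Lep, chosen after the values were seen, was 0.618 and 0.897 in HFD and 3.46 and 4.14 in HFD+Cana. Each HFD mouse thus had more leptin than adipsin RNA, and each HFD+Cana mouse had more adipsin than leptin RNA. The ratio of Cfd to Adipoq, also chosen afterwards, was 0.444 and 0.593 in HFD and 1.23 and 1.63 in HFD+Cana.

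**Figure D4:**
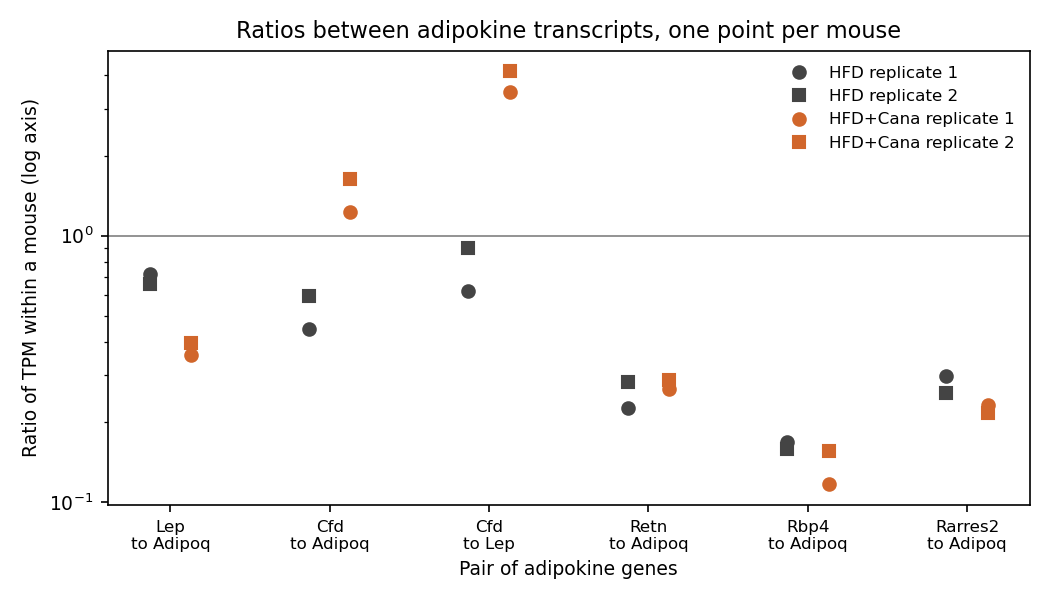
Ratio of TPM between pairs of adipokine genes within each mouse, on a log axis, with a line at a ratio of 1. The Cfd to Lep ratio lies below 1 in both HFD mice (0.618 and 0.897) and above 1 in both HFD+Cana mice (3.46 and 4.14), and the Lep to Adipoq ratio is below 1 in all 4.

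The level of adipocyte transcripts in each mouse was described by 18 adipocyte markers other than these adipokines. Their geometric mean was 879 and 931 TPM in HFD, against 777 and 839 TPM in HFD+Cana, a little lower in both treated mice. Set against that mean, Lep was 2.98 and 2.93 times as high in HFD and 1.80 and 2.14 times as high in HFD+Cana, a difference of -0.59 on the log2 scale (exact two-sided permutation p = 0.333, the smallest possible). Leptin RNA was lower relative to the mean of these 18 markers as well, though not relative to each one, as Gpd1 and Dgat2 were lower by more. Cfd was 1.84 and 2.63 times the marker mean in HFD and 6.22 and 8.86 times in HFD+Cana, and Adipoq was 4.15 and 4.43 times and 5.05 and 5.43 times. Retn, Nampt and Apln were also higher against the markers in both treated mice, by 0.42, 0.20 and 0.32 on the log2 scale, and Rbp4 and Rarres2 had overlapping groups. These ratios share 1 denominator in each mouse and are not separate measurements of it. The denominator itself differed by -0.16 on the log2 scale, HFD+Cana minus HFD. A gene of unchanged TPM is therefore higher against it, as with Nampt, whose own log2 fold change was 0.031. The share of all genes whose groups separate on this measure was not computed. The median log2 fold change of the markers was -0.19, and at an unadjusted p under 0.05 6 of the 18 genes were lower and 2 were higher (5.45% and 5.32% of all genes tested). In limma 0 of the 18 had an adjusted p under 0.05. The lipid synthesis enzymes Gpd1 and Dgat2 had log2 fold changes of -0.95 (standard error 0.14) and -0.91 (standard error 0.15). The 2 higher genes were the adrenergic receptor Adrb3, at 0.87 (standard error 0.17), and the glyceroneogenic enzyme Pck1, at 0.73 (standard error 0.27).

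The other adipokine genes differed less. Resistin is made by adipocytes in mice. Retn, on chromosome 8 from 3655770 to 3660110, measured 818 and 1165 TPM in HFD, against 1040 and 1310 TPM in HFD+Cana, with a log2 fold change of 0.26 (95% confidence interval -0.33 to 0.84, adjusted p = 0.714 from limma). The groups overlapped, and without HFD replicate 1 the log2 fold change was 0.0034. Rbp4, the retinol carrier, on chromosome 19 from 38116629 to 38125281, measured 610 and 654 TPM in HFD, against 458 and 707 TPM in HFD+Cana. The HFD+Cana mice held both the lowest and the highest Rbp4 value, and the log2 fold change was -0.15 (95% confidence interval -0.75 to 0.44, adjusted p = 0.843 from limma) and 0.16 without HFD+Cana replicate 1. Liver is the main source of Rbp4 in blood, and hepatocyte transcripts were higher in both HFD+Cana mice. Their part in the Rbp4 values was not tested.

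Chemerin RNA was slightly lower in both treated mice. Rarres2, on chromosome 6 from 48569696 to 48572789, measured 1087 and 1060 TPM in HFD, against 907 and 984 TPM in HFD+Cana, with a log2 fold change of -0.18 (95% confidence interval -0.46 to 0.09, adjusted p = 0.580 from limma). Relative to the adipocyte markers it was 1.24 and 1.14 in HFD and 1.17 and 1.17 in HFD+Cana, so on that measure the groups overlapped. Rarres2 overlaps Lrrc61 on the opposite strand, which had between 10.8 and 13.9 TPM. Nampt, on chromosome 12 from 32819545 to 32853349, was the gene with the smallest difference, with 63.7 and 62.9 TPM in HFD, against 60.9 and 68.7 TPM in HFD+Cana and a log2 fold change of 0.031 (95% confidence interval -0.21 to 0.28, adjusted p = 0.928 from limma). Its locus overlaps the noncoding gene Gdap10 on the same strand, at 1.78 to 2.41 TPM. Apelin RNA was the scarcest. Apln, on chromosome X from 48025146 to 48034853, measured 8.39 and 8.45 TPM in HFD, against 8.54 and 10.3 TPM in HFD+Cana, and its groups were only 0.092 TPM apart (log2 fold change 0.14, 95% confidence interval -0.19 to 0.48, adjusted p = 0.724 from limma). Leaving out HFD+Cana replicate 2 gave 0.019 for Apln, and leaving out HFD+Cana replicate 1 gave 0.27.

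By level, the order in HFD was Adipoq, Lep, Cfd, Rarres2, Retn, Rbp4, Nampt and Apln, and neighbours did not overlap except Rarres2 and Retn. In HFD+Cana it was Cfd, Adipoq, Lep, Retn, Rarres2, Rbp4, Nampt and Apln, with no overlap between neighbours. The order among the first 3 genes thus differed between the groups, with Cfd below Adipoq and Lep in HFD and above both in HFD+Cana. The 8 genes together held 1.05% and 1.22% of all TPM in HFD and 1.26% and 1.69% in HFD+Cana. The means differed by 0.34 percentage points (exact two-sided permutation p = 0.333, the smallest possible). Without Cfd the groups overlapped, as the other 7 genes summed to 8853 and 9798 TPM in HFD, against 7798 and 9427 TPM in HFD+Cana. For 6 of the 8 genes HFD replicate 2 was above HFD replicate 1, and for 8 of 8 HFD+Cana replicate 2 was above HFD+Cana replicate 1. The geometric mean of the 18 adipocyte markers was likewise higher in replicate 2 of each group. The share of all genes with replicate 2 above replicate 1 was not computed.

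Receptors of these adipokines were measured in the same tissue. Of 11 receptor genes 10 were tested, none passed an adjusted p of 0.05 in limma, and at an unadjusted p under 0.05 1 was lower and 0 were higher (5.45% and 5.32% of all genes tested). Their median log2 fold change was 0.0099. Of the adiponectin receptors, Adipor2 had 282 and 325 TPM in HFD, against 238 and 250 TPM in HFD+Cana (log2 fold change -0.31, standard error 0.11, adjusted p = 0.441 from limma), while Adipor1 stayed between 105 and 109 TPM in all 4 mice. T-cadherin (Cdh13), which binds large adiponectin complexes, had 55.0 and 51.0 TPM in HFD, against 44.9 and 48.1 TPM in HFD+Cana. The leptin receptor gene Lepr was scarce, at 1.59 and 2.07 TPM in HFD, against 2.18 and 1.85 TPM in HFD+Cana.

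The apelin receptor Aplnr had 23.6 and 23.8 TPM in HFD, against 19.6 and 11.7 TPM in HFD+Cana (log2 fold change -0.61, standard error 0.24, adjusted p = 0.474 from limma). It is found on endothelium. The 10 endothelial markers summed to 1439 to 1448 TPM in HFD, against 1141 to 1300 TPM in HFD+Cana, with a median log2 fold change of -0.22. In limma 0 of the 10 passed an adjusted p of 0.05, 2 were lower at an unadjusted p under 0.05, and the groups overlapped in 5. The part of the endothelial transcripts in the Aplnr values was not tested. The chemerin receptor Cmklr1 lay between 115 and 127 TPM in all 4 mice with overlapping groups. Gpr1, a further chemerin receptor, had 5.18 and 4.53 TPM in HFD, against 4.05 and 3.55 TPM in HFD+Cana, and Ccrl2, which binds chemerin without signalling, had 5.39 and 4.05 TPM and 5.78 and 7.96 TPM. C3ar1, the receptor of the complement peptide C3a that lies downstream of adipsin, had 37.5 and 23.2 TPM in HFD, against 46.4 and 21.1 TPM in HFD+Cana, and in both groups replicate 1 was the higher mouse. For retinol bound to Rbp4, the receptor Stra6 was below the filter, at 0.065 to 0.363 TPM, and the related Stra6l lay between 1.07 and 2.39 TPM.

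Adipsin acts on complement factor B bound to C3, and neither partner was higher in the treated mice as adipsin was. C3 had 795 and 591 TPM in HFD, against 718 and 670 TPM in HFD+Cana, with overlapping groups. Cfb was lower in both treated mice, with 539 and 473 TPM in HFD, against 368 and 401 TPM in HFD+Cana (log2 fold change -0.39, standard error 0.11, adjusted p = 0.362 from limma). Of the resistin family, Retnla, which macrophages and adipose tissue express in mice, had 1153 and 1335 TPM in HFD, against 1298 and 1941 TPM in HFD+Cana. Retnlg had 0.874 and 0.403 TPM in HFD, against 7.12 and 0.745 TPM in HFD+Cana, a difference carried by HFD+Cana replicate 1. Transthyretin (Ttr), the liver protein that binds Rbp4 in plasma, was listed at 0 in both HFD mice and had 7.55 and 9.06 TPM in HFD+Cana (adjusted p = 0.0385 from limma). The hepatocyte marker Alb moved with it, with 5.38 TPM or less in HFD, against 47.9 and 68.7 TPM in HFD+Cana. The part of liver transcripts in the Ttr value was not tested. Downstream of Nampt, the NAD-making enzyme Nmnat1 had 12.5 and 12.1 TPM in HFD, against 10.1 and 9.94 TPM in HFD+Cana. Nmnat3, an enzyme of the same step, had 5.16 and 6.51 TPM in HFD, against 7.81 and 7.80 TPM in HFD+Cana, and so differed in the other direction. Of the 10 tested genes in this list Ttr alone passed an adjusted p of 0.05, and without any 1 of the mice 0 genes of the whole table passed. The unadjusted p was under 0.05 for 2 genes with higher and 2 with lower values (10.8% of all genes tested in either direction).

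Genes that make or answer these hormones gave no gene past an adjusted p of 0.05 in limma. At an unadjusted p under 0.05, 2 of 12 tested transcription factors were lower and 1 was higher (5.45% and 5.32% of all genes tested), with a median log2 fold change of -0.14. The lipogenic factor Srebf1 had 108 and 117 TPM in HFD, against 79.9 and 69.1 TPM in HFD+Cana (log2 fold change -0.60, standard error 0.11, adjusted p = 0.244 from limma), and the sterol sensor Nr1h3 (LXR alpha) had 109 and 106 TPM and 85.6 and 91.6 TPM. Nfe2l2, which drives antioxidant genes, had 65.1 and 65.7 TPM in HFD, against 78.5 and 77.1 TPM in HFD+Cana. Pparg, a main regulator of the adipocyte program, and Cebpa, which acts with it, were lower in both treated mice. Pparg had 162 and 162 TPM in HFD, against 124 and 149 TPM in HFD+Cana, and Cebpa had 202 and 234 TPM and 190 and 193 TPM. Their adjusted p-values from limma were 0.510 and 0.575. The related Cebpd had 42.3 and 25.8 TPM in HFD, against 43.9 and 42.9 TPM in HFD+Cana, and Cebpb lay between 20.5 and 28.6 TPM with overlapping groups.

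Of 11 genes of leptin signalling 2 were higher and 0 lower at an unadjusted p under 0.05 (5.32% and 5.45% of all genes tested), with a median log2 fold change of 0.17. Socs3, a feedback inhibitor that leptin and other cytokines induce, had 5.68 and 5.61 TPM in HFD, against 12.3 and 7.33 TPM in HFD+Cana (log2 fold change 0.66, standard error 0.24, adjusted p = 0.453 from limma). The adaptor Grb10 had 33.1 and 29.9 TPM in HFD, against 40.9 and 39.2 TPM in HFD+Cana, and the insulin receptor substrate Irs1 had 4.44 and 6.67 TPM and 7.68 and 9.18 TPM. Of 8 genes tied to the folding and release of adiponectin 1 was lower and 0 were higher at an unadjusted p under 0.05 (5.45% and 5.32% of all genes tested). The lower gene was the chaperone Hspa5 (BiP), with 505 and 425 TPM in HFD, against 372 and 303 TPM in HFD+Cana (log2 fold change -0.46, standard error 0.15, adjusted p = 0.423 from limma). Sirt1, a deacetylase, had 9.11 and 10.2 TPM in HFD, against 11.1 and 12.6 TPM in HFD+Cana, and the oxidase Ero1lb had 6.49 and 6.16 TPM and 6.26 and 5.37 TPM.

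Beyond the 8 genes, 34 other secreted products of adipose tissue were listed and 27 tested. In limma 0 of these had an adjusted p under 0.05. The unadjusted p was under 0.05 for 8 (10.8% of all genes tested), of which 4 had higher and 4 had lower values, and the median log2 fold change was -0.058. Azgp1, a lipid-mobilising glycoprotein that liver also makes, had 0.040 and 0.067 TPM in HFD, against 1.73 and 2.73 TPM in HFD+Cana (log2 fold change 1.60, standard error 0.25, adjusted p = 0.215 from limma). It was low in all 4 mice, and hepatocyte markers moved with it. Their part in the Azgp1 values was not tested. Igf1, the growth factor, had 219 and 190 TPM in HFD, against 154 and 130 TPM in HFD+Cana (log2 fold change -0.52, standard error 0.13). Dpp4, a protease of progenitor cells that cleaves incretins, had 10.7 and 9.10 TPM and 15.0 and 23.3 TPM, and the adiponectin paralog C1qtnf3 had 1.10 and 2.00 TPM and 4.36 and 3.15 TPM. Both were higher in both treated mice, with adjusted p-values of 0.336 and 0.359 from limma.

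**Figure D5:**
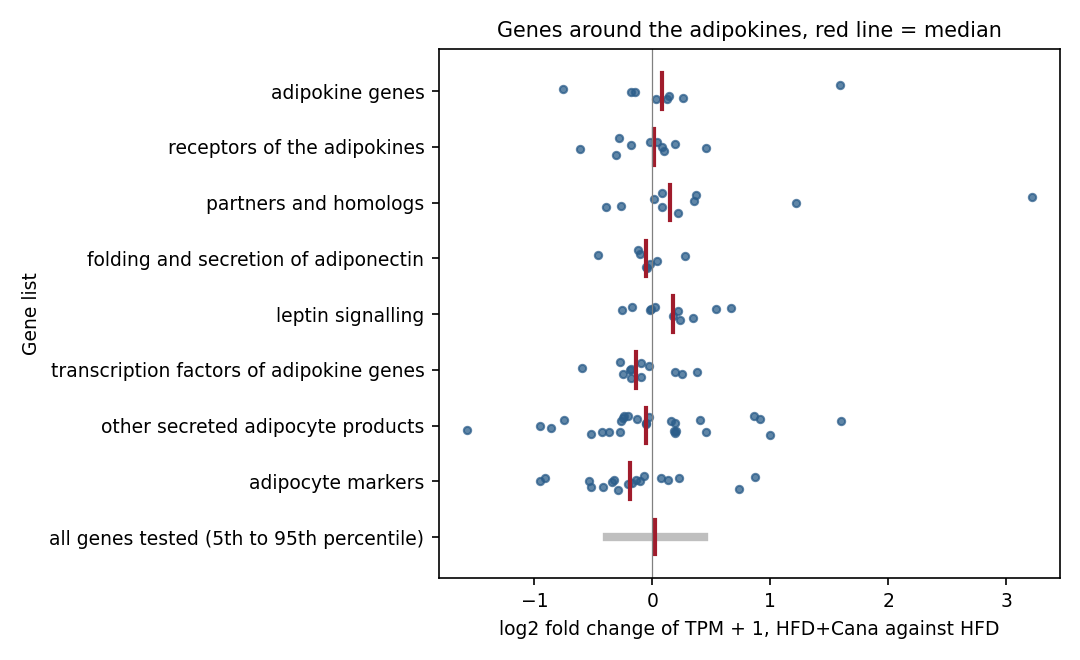
log2 fold change of TPM + 1 of each tested gene in the lists around the adipokines, with a red line for the median of a list and, in the lowest row, the 5th to 95th percentile of all genes tested (-0.39 to 0.44). The medians of the 8 lists lie between -0.19 and 0.17, and the highest point is Ttr, which was listed at 0 in both HFD mice.

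The genes whose pattern over the 4 mice was nearest to that of each adipokine were found by Euclidean distance between log2(TPM + 1) values centred on each gene's mean, among 8559 genes averaging 10 TPM or more. For Lep the nearest were the proteoglycan gene Gpc1 (distance 0.12), Adam23 (0.12), Marc1 (0.14), Smim4 (0.15) and Mrc2 (0.16). Gpc1 had 31.6 and 30.3 TPM in HFD, against 14.8 and 20.9 TPM in HFD+Cana. For Cfd no gene was as near. Its nearest were Gpm6a (0.35), which is on the list of mesothelial markers, and Nkain4 (0.39). Gpm6a had 6.06 and 8.10 TPM in HFD, against 14.7 and 31.5 TPM in HFD+Cana. The nearest genes to the other 6 lay within 0.066, with Mrps18c and Mtg2 for Adipoq, Lmo4 and Accs for Retn, Epn2 and Abhd17b for Rbp4, Myl12b and Nck2 for Nampt, Tmem14a and Sbds for Apln, and 4930402H24Rik and Trim27 for Rarres2.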

How the data were processed

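Total RNA of gWAT was made into libraries with a stranded kit for polyadenylated mRNA and read in pairs of 150 bases. Reads went through the default nf-core/rnaseq pipeline, and the authors deposited TPM per gene from Salmon, with a total of 1000000 per sample. GRCm38 is the build in the submitters' processing notes, and no source used here names the annotation release. Of 45706 gene IDs, 45143 matched GENCODE M21, which gave positions and restored 27 names that had become dates.

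Samples were grouped by their treatment labels. The 13788 genes averaging 1 TPM or more were fitted on log2(TPM + 1) with limma 3.58.1 in R 4.3.3 (eBayes with trend, no covariate), with Benjamini-Hochberg adjustment across all of them and a threshold of 0.05. The fit was also run on simulated data. Their noise depended on expression level only, so the run does not measure how the fit performs on these mice. Tests for counts were not used on TPM. Within-mouse ratios and shares were compared by exact permutation tests, in scipy 1.17.1 under Python 3.11.15. The labels do not say that the libraries came from separate animals, while the study calls its replicates biological. P-values measure only the spread between these samples.

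The 8 genes and all lists were chosen with earlier results of these data known. Genes named are the 8, all receptors, from the other lists genes among the 3 of smallest p (4 for other secreted products) and defining genes, and the nearest patterns (5 genes for Lep and 2 for each other gene). Adrb3, Pck1, Nmnat3, Cebpb and Cebpd, and genes so marked in the text, were named after their values were seen. So were Gsn, S100a9, Csf3r, Ckm, Myh4, Tnnt3 and Atp2a1. Cyp2e1 was left out of a sum after its level was seen, Fga, Fgg, Ambp and Cps1 are named as listed at 0, and Lrrc61 and Gdap10 for their overlap. Alternatives were pseudocounts of 0.1 and 5, filters at 5 TPM and at none, median-of-ratios and quantile scaling, totals without mitochondrial or adipokine genes, eBayes without trend or robust, the replicate number as a block, and each mouse left out.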

Additional observations from a re-analysis of the deposited data

How the results depend on the processing

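Under 15 alternatives Lep kept a negative and Cfd a positive log2 fold change and neither passed an adjusted p of 0.05 in limma. Leaving out single mice gave -0.93 to -0.57 for Lep and 1.28 to 1.90 for Cfd, and the other alternatives gave -0.77 to -0.75 and 1.58 to 1.61. Over all 15 the adjusted p ran from 0.171 to 0.874 for Lep and from 0.0935 to 0.842 for Cfd. Leaving out mice, the log2 fold change of Nampt ranged from -0.056 (without HFD+Cana replicate 2) to 0.12 and that of Rbp4 from -0.46 to 0.16. For Nampt the former and for Rbp4 the latter, without HFD+Cana replicate 1, were opposite in sign to the values with all mice. Leaving out mice, the median of the 8 genes ranged from -0.019 to 0.20, and the number of genes whose groups did not overlap from 4 to 8. The 8 were reached without HFD+Cana replicate 1, where 74.4% of all genes tested did not overlap. The Lep to Adipoq difference ranged from -0.95 to -0.81, the Lep to adipocyte marker difference from -0.72 to -0.46 and the share of TPM from 0.13 to 0.55 percentage points. Over all genes 6 passed with the settings used, none with a pseudocount of 0.1, quantile normalization, no filter, a mean of at least 5 TPM or any mouse left out, 2 with a pseudocount of 5, 2 with the block and 13 with eBayes without trend. The labels give both groups the numbers 1 and 2 without saying that these pair the mice. Deviations of the mice numbered 1 from their group means had r = 0.18 across 13788 genes, and with the block (replicate block) the estimates were the same and none of the 8 genes passed the adjusted p, with values of 0.171 for Lep and 0.0935 for Cfd from limma, while 3 in place of 2 had an unadjusted p under 0.05, Retn being the gene added. Depth is unknown for TPM.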

Other observations

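Haptoglobin and serum amyloid A3, acute-phase products of fat chosen after their values were seen, were lower in both HFD+Cana mice. Lcn2, from the list of other secreted products and also named afterwards, had overlapping groups. It measured 34.2 and 26.2 TPM in HFD, against 33.0 and 14.5 TPM in HFD+Cana. Haptoglobin (Hp), which adipocytes and liver secrete and which binds free haemoglobin, had 14363 and 9547 TPM in HFD, against 7226 and 5729 TPM in HFD+Cana (log2 fold change -0.86, standard error 0.28, adjusted p = 0.417 from limma). It was above every one of the 8 adipokine genes in the HFD mice. Serum amyloid A3 (Saa3) had 622 and 323 TPM in HFD, against 213 and 106 TPM in HFD+Cana (log2 fold change -1.57, standard error 0.46, adjusted p = 0.375 from limma). S100a8, an inflammatory protein of neutrophils, had 117 and 53.7 TPM and 13.7 and 22.5 TPM. The other tested neutrophil markers did not move with it. S100a9 and Csf3r had overlapping groups, and Mmp9 and Elane were higher in both treated mice. None of these passed an adjusted p of 0.05, and in Hp and Saa3 the HFD mice differed from each other by more than HFD replicate 2 differed from HFD+Cana replicate 1.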
